A study of Mus musculus with 6 samples.

Results

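The genes described here are 35 genes of DNA replication and mitosis. They are part of 18193 genes that a probe set of their own represents on the arrays. The 35 were chosen by name, with earlier results of these data known, so counts over them are descriptions without a test. All 35 had at least 1 probe set that the platform annotation assigns to that gene alone, 83 probe sets in all, and the probe set with the highest mean over 6 arrays stood for the gene. The genes were split by role into 19 of S phase or entry to it and 16 assigned to G2 phase and mitosis. Among the 16 is Ccna2, which acts in S phase as well. Each of the 35 genes was measured on 3 arrays of wild-type and 3 arrays of mutant cells, and the comparison is mutant against wild type.

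The arrays hold total RNA of YFP+ cells sorted from mouse embryos at embryonic day 9.0. The cells are the Isl1-cre domain, which the labels call embryonic cardiac progenitors, and the series asks how Notch1, β-catenin and Isl1 act on their fate. Per the labels, mutant embryos carried Isl1-cre, Rosa-YFP and Beta-catenin (loxP ex3), so that Cre removes exon 3 and leaves a stable β-catenin, the effector of canonical Wnt signalling. Wild-type cells were YFP+ cells of the same domain without stabilised β-catenin; their other alleles are not spelled out in the labels. Cre acts wherever Isl1 is or was active, so the sort can hold any descendant of an Isl1-expressing cell. The labels do not give the number of embryos behind an array, the series describes at least 3 independent experiments, and the p-values below reflect only how these 6 samples vary, which may in part be technical.

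Proliferating cells copy their genome in S phase and divide it in mitosis. E2F factors switch on the genes for licensing origins, unwinding DNA and making nucleotides before S phase. Genes for mitotic kinases, the spindle and the checkpoint follow in G2 phase through promoter elements named CHR and CCAAT boxes, read by MuvB complexes and NF-Y. Progenitors of the second heart field divide quickly at this stage, and canonical Wnt signalling is known to influence their proliferation. In RNA from a bulk sort, fewer cycling cells and less RNA per cycling cell cannot be told apart.

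Values are log2 signals as deposited, and a difference is mutant minus wild type on that scale, so that 1 unit is a 2-fold change. Array medians lay between 6.47 and 6.50, and arrays were used without further scaling. Background was set at 4.85, the 95th percentile of bacterial control probe sets, and the lowest of the 35 gene means lay above it. Of 11 measured cardiac progenitor markers 6 were lower and 5 higher in mutant cells, 0 were called, and Nkx2-5 alone lay at or below that background. Values did not overlap for 3 lower markers (Isl1, Tbx20 and Nkx2-5) and for Foxc2, which was higher by 0.61. Over all genes 9.18% were lower and 8.64% higher without overlap, and 0.066% were called higher and 0% lower. Isl1, the gene whose locus drives Cre, read 9.24, 9.36 and 9.77 in wild type and 8.72, 8.61 and 7.49 in mutant cells, a difference of −1.18 (SE 0.33, 95% interval −1.95 to −0.42, limma adjusted p = 0.269).

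Genes of both classes stood lower on average in mutant cells, but none passed the test. Of the 35 genes 29 had a lower mutant mean and 6 a higher one, against 55.3% of all genes lower and 44.7% higher. The median difference was −0.21 beside −0.03 over all genes. By limma, 0 of the 35 were called at an adjusted p under 0.05 in either direction; over all genes 0.066% were called higher and 0% lower. Before adjustment, p was under 0.05 for 4 genes with lower values (Pole3, Rrm2, Ccne2 and Kif11), which held for 4.84% of all genes, and for 0 with higher values, which held for 6.76%. The mutant values lay wholly below the wild-type values for 9 of the 35, or 25.7%, against 9.18% of all genes, and wholly above for 0, against 8.64%.

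Both classes had mostly lower mutant means, and no test of a difference between the classes was made. Of the 19 S-phase genes 18 were lower (17 with quantile normalization, 19 with each array centred on its median), with differences from −0.72 to 0.01 and a median of −0.21. Of the 16 mitotic genes 11 were lower (11 and 12 under those scalings, 14 without mutant replicate 1, with the most variable probe set or with the mean of probe sets), with differences from −0.37 to 0.24 and a median of −0.19. The groups did not overlap for 6 S-phase genes (31.6%) and for 3 mitotic genes (18.8%), all lower, against 9.18% of all genes. No member differed by 1 or more on the log2 scale, and the largest difference was that of Pole3, a change in signal of −39.5%.

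**Figure D1:**
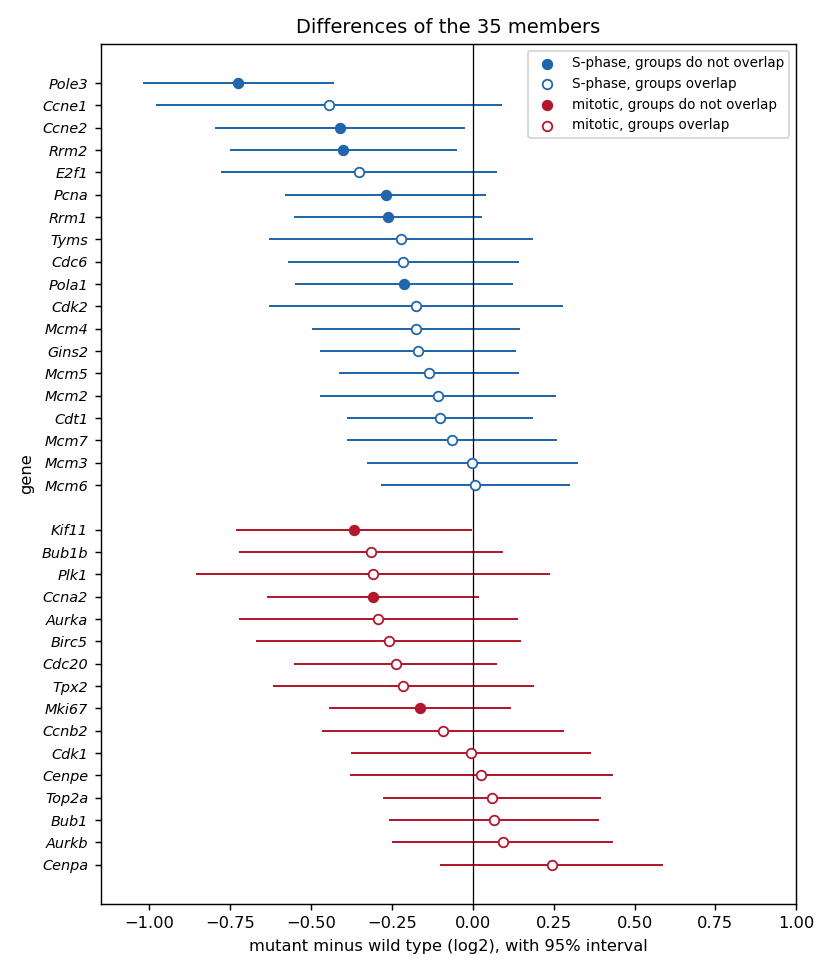
Differences of the 35 genes, mutant minus wild type in log2 units, as points with 95% intervals from limma (3 arrays a group); S-phase genes are blue and mitotic genes red, and filled points mark genes whose groups do not overlap. Pole3 sits farthest to the left at −0.72, the MCM genes lie close to 0, and 5 of the 6 points right of 0 are mitotic genes.

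Promoter letters, which the choice of genes did not use, are given here as a description. RefSeq promoter windows (GRCm38.p6, 250 bases before to 50 after a start) were at hand for 29 of the 35 genes, 16 S-phase genes with 17 windows and 13 mitotic genes with 13. An E2F match (with TTTCCCGC, TTTCGCGC, TTTGCCGC or TTTGGCGC, both strands) was found in 8 of 17 S-phase and 1 of 13 mitotic windows, against 2.26% of all 32851 windows. A CHR match (TTTGAA or TTCGAA, both strands) was found in 2 S-phase and 11 mitotic windows, or 11.8% and 84.6%, against 19.2%. A CCAAT match (CCAAT, both strands) was found in 11 and 12, or 64.7% and 92.3%, against 37.4%. Matches on opposite strands that overlap each other were counted separately. Among windows of genes at least as bright as the dimmest of the 35, the shares were 4.51% for E2F, 13.8% for CHR and 38.1% for CCAAT. A match describes these letters only and shows no binding. Only exact letters were counted, so a window without a match can still hold a site that differs from them.

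Promoter stretches follow for genes described below: lower ones without overlap (Rrm1, Rrm2, Pola1, Pole3, Kif11, Mki67), a pair near 0 (Mcm6, Cdk1) and Cdc20, a compact CHR and CCAAT promoter. Each is the 150 bases before the start, with matches to any of the 3 motifs in capitals.
Rrm1 (chr7:102441545-102441694, plus strand): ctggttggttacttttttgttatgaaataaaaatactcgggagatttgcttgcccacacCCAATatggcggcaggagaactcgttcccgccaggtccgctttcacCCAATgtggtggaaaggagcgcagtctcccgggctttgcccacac
Rrm2 (chr12:24708104-24708253, plus strand): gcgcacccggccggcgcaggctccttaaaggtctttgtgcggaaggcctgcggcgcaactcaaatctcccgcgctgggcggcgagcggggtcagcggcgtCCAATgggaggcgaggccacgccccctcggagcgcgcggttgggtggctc
Pola1 (chrX:93632156-93632305, minus strand): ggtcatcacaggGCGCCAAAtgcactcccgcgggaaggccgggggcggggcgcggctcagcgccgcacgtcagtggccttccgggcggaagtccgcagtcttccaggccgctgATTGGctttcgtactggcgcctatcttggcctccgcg
Pole3 (chr4:62525015-62525164, minus strand): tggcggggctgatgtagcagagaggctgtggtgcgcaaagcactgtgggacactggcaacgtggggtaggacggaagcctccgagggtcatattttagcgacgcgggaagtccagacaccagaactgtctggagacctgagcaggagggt
Mcm6 (chr1:128359706-128359855, minus strand): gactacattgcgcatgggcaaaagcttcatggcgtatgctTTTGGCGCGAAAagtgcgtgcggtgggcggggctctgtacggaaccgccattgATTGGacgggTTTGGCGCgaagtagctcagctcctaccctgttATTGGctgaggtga
Cdk1 (chr10:69352913-69353062, minus strand): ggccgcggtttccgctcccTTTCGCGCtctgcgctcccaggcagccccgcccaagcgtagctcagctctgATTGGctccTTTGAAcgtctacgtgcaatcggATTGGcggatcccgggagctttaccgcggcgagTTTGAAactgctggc
Cdc20 (chr4:118437344-118437493, minus strand): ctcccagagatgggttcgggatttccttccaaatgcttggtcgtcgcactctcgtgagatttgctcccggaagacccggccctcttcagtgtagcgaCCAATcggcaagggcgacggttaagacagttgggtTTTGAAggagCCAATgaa
Kif11 (chr19:37376232-37376381, plus strand): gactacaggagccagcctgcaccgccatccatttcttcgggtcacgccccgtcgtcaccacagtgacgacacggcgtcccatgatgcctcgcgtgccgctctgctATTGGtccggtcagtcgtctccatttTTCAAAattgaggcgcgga
Mki67 (chr7:135716380-135716529, minus strand): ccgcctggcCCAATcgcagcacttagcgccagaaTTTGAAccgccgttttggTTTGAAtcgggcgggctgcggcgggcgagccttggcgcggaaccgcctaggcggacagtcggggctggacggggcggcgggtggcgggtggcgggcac

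In these stretches Mcm6 held 3 E2F and 2 CCAAT matches, and Pola1 held 1 of each. Rrm1 and Rrm2 held 2 and 1 CCAAT boxes and no E2F match, and Pole3 held no match at all. Letters that differ from a searched E2F word by 1 base were not counted, and the Rrm1 and Pole3 stretches hold such letters. Cdk1 held 1 E2F, 2 CHR and 2 CCAAT matches, Cdc20 1 CHR and 2 CCAAT, Kif11 1 CHR and 1 CCAAT and Mki67 2 CHR and 1 CCAAT.

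The nucleotide supply genes came out lower with every probe set. Rrm1 and Rrm2 encode the large and small subunits of ribonucleotide reductase, which makes deoxyribonucleotides, and Tyms encodes thymidylate synthase. Rrm2 read 12.52, 12.58 and 12.54 in the 3 wild-type samples and 12.42, 12.06 and 11.96 in mutant samples 1, 2 and 3. The 3 mutant values were below all wild-type values, mutant array 1 only narrowly, and the difference was −0.40 (SE 0.15, 95% interval −0.75 to −0.05, limma adjusted p = 0.386). The other Rrm2 probe sets gave −0.49 and −0.76. Rrm1 read 12.15, 12.06 and 12.15 in wild type and 11.97, 11.72 and 11.89 in mutant cells, again without overlap, a difference of −0.26 (SE 0.12, 95% interval −0.55 to 0.03, limma adjusted p = 0.468). A further Rrm1 probe set above background gave −0.48. Tyms had a difference of −0.22 by the probe set chosen, on which wild-type values were scattered, and −0.47, −0.48 and −0.59 by its other probe sets. For these 3 genes the 10 probe sets were all lower in mutant cells, 6 of them without overlap between groups; over all probe sets 54.8% were lower and 9.04% lower without overlap.

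Of the fork proteins, Pole3 had the smallest p of the 35 genes. Pole3 is a small histone-fold subunit of DNA polymerase epsilon that is also part of a chromatin remodelling complex. It read 8.75, 8.85 and 9.03 in the 3 wild-type samples and 8.20, 8.11 and 8.14 in mutant samples 1, 2 and 3. All 3 mutant values lay below the wild-type values, mutant array 1 being the highest of the 3, and the difference of −0.72 (SE 0.13, 95% interval −1.02 to −0.43, limma adjusted p = 0.14) missed the threshold. Pole3 ranked 5 by p among the 10057 genes with a lower mutant mean, by a probe set of a type (_s_at) that can bind related transcripts. A less bright Pole3 probe set gave −0.51 with overlapping groups. When _s_at and _x_at probe sets were left out, that one stood for Pole3, with a limma adjusted p of 0.404. Another Pole3 probe set, below background, gave −0.19. Pcna, the sliding clamp of the fork, read 12.89, 12.89 and 12.79 in wild type and 12.78, 12.44 and 12.54 in mutant cells; no value overlapped, and the difference was −0.27 (SE 0.13, 95% interval −0.58 to 0.04, limma adjusted p = 0.482). Pola1, the catalytic subunit of polymerase alpha, read 8.68, 8.24 and 8.39 in wild type and 8.21, 8.22 and 8.24 in mutant cells, where the mutant values lay just under the lowest wild-type value; the difference was −0.21 (95% interval −0.55 to 0.12). Gins2, of the GINS complex of the helicase, stood at −0.17.

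The G1/S regulators were all lower, with mutant array 2 lowest for each. Cyclins E1 and E2, encoded by Ccne1 and Ccne2, activate Cdk2 at the start of S phase. Ccne2 read 7.41, 7.68 and 7.36 in the 3 wild-type samples and 7.35, 6.92 and 6.94 in mutant samples 1, 2 and 3. Mutant array 1 lay just under the lowest wild-type array and the other mutant arrays farther below, and the difference was −0.41 (SE 0.17, 95% interval −0.80 to −0.02, limma adjusted p = 0.406). Ccne1 read 9.64, 9.73 and 9.71 in wild type and 9.71, 8.76 and 9.27 in mutant cells, so that mutant array 1 was level with wild type; the difference was −0.45 (SE 0.23, 95% interval −0.98 to 0.09, limma adjusted p = 0.496). A second Ccne1 probe set gave −0.56 with no overlap. The transcription factor gene E2f1 stood at −0.35, with its other probe sets at −0.03 and −0.24, and Cdk2 at −0.18.

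Licensing and helicase genes had small differences by the probe sets chosen. The MCM proteins form the hexameric ring that unwinds DNA, and Cdc6 and Cdt1 load it onto origins. The 6 MCM genes had differences from −0.18 (Mcm4) to 0.01 (Mcm6), a median of −0.09, and overlapping groups for each by the probe set chosen. Mcm3 read 11.83, 11.55 and 11.55 in wild type and 11.50, 11.65 and 11.77 in mutant cells, with a difference of −0.0009 (95% interval −0.33 to 0.33). Mcm6 read 12.49, 12.36 and 12.20 in wild type and 12.34, 12.36 and 12.38 in mutant cells, with a difference of 0.01 (95% interval −0.28 to 0.30). The intervals of these 2 genes reach down to −20.3% and −17.9% of signal in mutant cells, so small changes could not be resolved with 3 arrays a group. Mcm2, Mcm5 and Mcm7 stood at −0.11, −0.14 and −0.07, Cdc6 at −0.21 and Cdt1 at −0.10. Of the 19 MCM probe sets 16 were lower. The other 4 of Mcm3 gave −0.02, −0.15, 0.02 and −0.28, the last without overlap and the only such MCM probe set, and a dimmer Mcm5 probe set gave −0.47.

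Among mitotic genes, Kif11 and Ccna2 were lower on each mutant array. Kif11 encodes the kinesin that pushes spindle poles apart. It read 11.15, 10.74 and 10.72 in the 3 wild-type samples and 10.57, 10.37 and 10.57 in mutant samples 1, 2 and 3. Wild-type array 1 was the highest by a wide margin and all mutant values lay under the wild-type range, for a difference of −0.37 (SE 0.16, 95% interval −0.73 to −0.00093, limma adjusted p = 0.431); its other probe sets gave −0.08 and −0.26. Ccna2, cyclin A2, which acts in S and G2 phase, read 11.74, 11.73 and 11.68 in wild type and 11.55, 11.17 and 11.51 in mutant cells. No value overlapped, and the difference was −0.31 (SE 0.14, 95% interval −0.64 to 0.02, limma adjusted p = 0.454). Mki67, the proliferation antigen Ki-67 that coats mitotic chromosomes, read 12.77, 12.62 and 12.54 in wild type and 12.51, 12.46 and 12.46 in mutant cells, lower without overlap by a small margin; the difference was −0.16 (95% interval −0.44 to 0.12).

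Of the 7 genes for mitotic kinases, the passenger complex, the checkpoint and the anaphase-promoting complex, mutant array 2 was the lowest array for 5 (Plk1, Aurka, Birc5, Bub1b and Cdc20). For Aurkb it lay above the wild-type range and for Bub1 inside it. Plk1, polo-like kinase 1, read 8.40, 8.51 and 8.46 in the 3 wild-type samples and 8.47, 7.59 and 8.38 in mutant samples 1, 2 and 3. Mutant array 2 alone stood apart, the other 5 arrays lying between 8.38 and 8.51, and the difference was −0.31 (SE 0.23, 95% interval −0.86 to 0.24, limma adjusted p = 0.626). Bub1b, the checkpoint protein BubR1, read 9.92, 9.66 and 9.75 in wild type and 9.74, 9.16 and 9.47 in mutant cells; mutant array 1 was inside the wild-type range and the difference was −0.32 (95% interval −0.72 to 0.09). Aurka, a spindle pole kinase, stood at −0.29, Birc5 (survivin, of the chromosomal passenger complex) at −0.26, Cdc20, an activator of the anaphase-promoting complex, at −0.24, and the spindle factor Tpx2 at −0.21. None of these passed.

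The remaining mitotic genes showed no common direction. Cdk1, the kinase that drives entry into mitosis, read 10.01, 10.35 and 10.21 in wild type and 10.40, 9.97 and 10.19 in mutant cells, with a difference of −0.004 (95% interval −0.37 to 0.37). Cenpe, a kinetochore motor, read 11.37, 10.87 and 10.85 in wild type and 10.94, 11.05 and 11.18 in mutant cells, with a difference of 0.03 (95% interval −0.38 to 0.43). In both genes wild-type and mutant values were interleaved. Ccnb2, cyclin B2, stood at −0.09, Top2a, topoisomerase II alpha, at 0.06, the checkpoint kinase gene Bub1 at 0.07 and Aurkb at 0.09. Cenpa, the histone of centromeres, was the highest at 0.24, but its probe sets conflicted: 2 gave −0.01 and −1.29. The last of these, dimmer and of a type (_x_at) that can bind other transcripts, read 6.66, 7.14 and 6.81 in wild type and 5.78, 5.35 and 5.62 in mutant cells; it was singled out after its values were seen, and its limma adjusted p over all 34945 probe sets was 0.107.

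**Figure D2:**
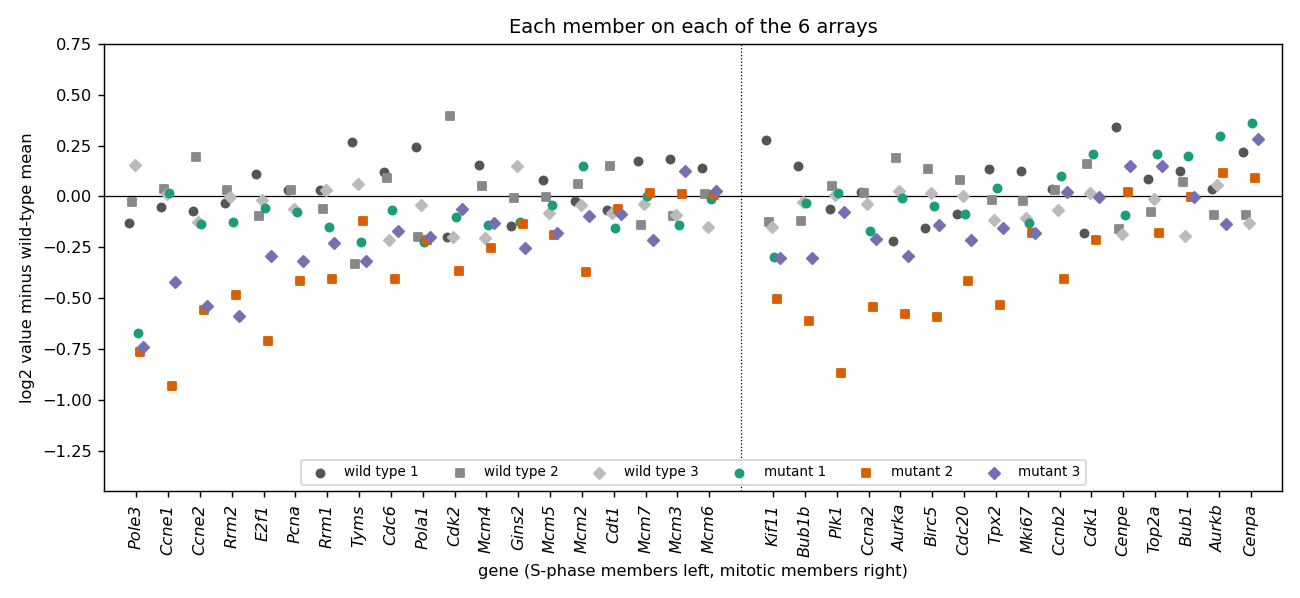
Value of each gene on each array, in log2 units relative to that gene's wild-type mean; grey symbols are the wild-type arrays and coloured symbols the mutant arrays, with S-phase genes left of the dotted line and mitotic genes right. Mutant array 2 (orange) is the lowest of the 6 arrays for 22 of 35 genes, and mutant array 1 (green) lies within the wild-type range for 17 and above it for 7.

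The mutant arrays were not alike. Mutant array 2 was the lowest of all 6 for 22 of the 35 genes, against 19.2% of all genes. Mutant array 1 lay below the wild-type range for 11 genes, inside it for 17 and above it for 7, while arrays 2 and 3 lay below it for 25 and 22. Over all genes the 3 mutant arrays lay below the wild-type range in 27.9%, 31.0% and 33.9% of cases. The classes parted on single arrays. Relative to the wild-type mean, the S-phase genes averaged −0.12, −0.33 and −0.25 in mutant samples 1, 2 and 3 and 0.04, 0.01 and −0.05 in the wild-type samples. The mitotic mean was 0.04, −0.34 and −0.09 on the mutant and 0.05, 0.0023 and −0.06 on the wild-type arrays, so that mutant array 1 lay within the wild-type spread. The S-phase mean minus the mitotic mean was −0.16 and −0.16 on mutant arrays 1 and 3, 0.00 on mutant array 2, and from −0.01 to 0.01 in wild-type samples. One mutant array thus showed no gap between the classes, and no test was made of it. Without mutant replicate 2 the mitotic median went from −0.19 to −0.04, with 9 of 16 genes lower, and the S-phase median from −0.21 to −0.17, with 17 of 19 lower. Without mutant replicate 1 the medians were −0.25 and −0.22.

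Lists of other cell types and of metabolism also differed between these arrays, and their part in these values was not tested. Markers of neurons were lower in 9 of 10 genes. Relative to the wild-type mean they averaged 0.03, −1.25 and −0.91 on the mutant arrays and −0.26, −0.22 and 0.47 on the wild-type arrays. Their mean level ran from 8.45 to 9.18 in wild type and from 7.46 to 8.74 in mutant cells. Primitive erythroid markers were lower in 9 of 9 measured genes, with a mean of −0.47, −1.08 and 0.24 on the mutant arrays. Their levels ran from 9.52 to 10.11 in wild type and from 8.81 to 10.13 in mutant cells. Macrophage markers were lower in 9 of 10 genes, at −0.10, −0.65 and −0.33, with levels of 5.97 to 6.28 and 5.52 to 6.07; the defining gene Ptprc, as 1 of 2 such markers, lay below background in both groups. Endothelial markers were higher in 10 of 10 genes, by 0.77, 1.13 and 0.999 on the mutant arrays beside 0.12, 0.31 and −0.44 on the wild-type arrays, with levels of 6.85 to 7.60 and 8.06 to 8.42. Glycolytic and hypoxia-response genes were higher in 18 of 18, at 0.80, 1.38 and 1.35 beside 0.04, −0.09 and 0.05 on the wild-type arrays. Of these 18 genes 3 were called, against 0.066% of all genes called higher. Mutant array 1 was nearest to wild type there, as in both the S-phase and the mitotic genes. Neural crest markers were higher in 8 of 10, at 0.47, 0.31 and 0.59 beside 0.08, −0.04 and −0.04 on the wild-type arrays. Surface ectoderm markers were higher in 10 of 10, at 0.36, 0.67 and 1.31 beside −0.10, 0.29 and −0.19 on the wild-type arrays. Cardiomyocyte markers were lower in 8 of 10, at −0.36, −0.29 and −0.04 beside −0.31, 0.37 and −0.07 on the wild-type arrays. The cardiomyocyte means of mutant arrays 2 and 3 thus lay inside the wild-type range. Visceral endoderm markers were lower in 7 of 9 measured genes, at −1.64, −0.34 and 0.11 beside −1.25, 0.80 and 0.45 on the wild-type arrays. Pharyngeal endoderm markers were higher in 6 of 10, at −0.02, 0.10 and 0.22 beside 0.02, 0.23 and −0.25. Apart from 2 macrophage markers, no marker of these lists had a mean at or below background.

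**Figure D3:**
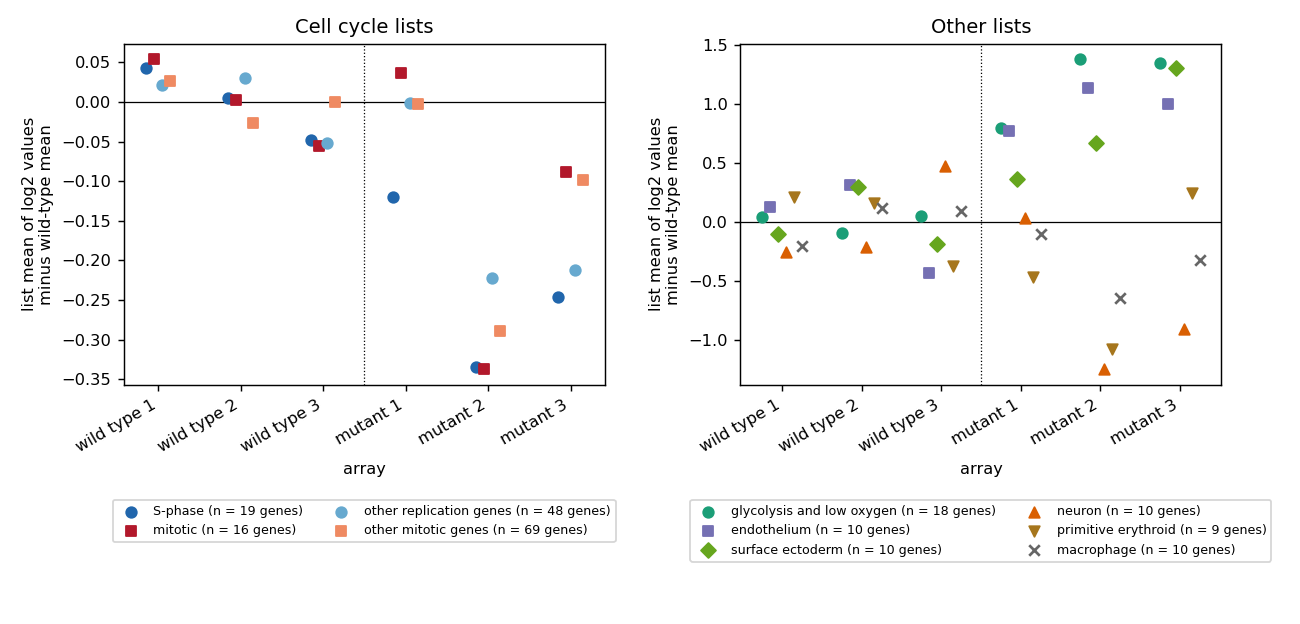
Mean of each gene list on each array, in log2 units relative to the wild-type mean of the same genes; the left panel shows the S-phase and mitotic genes with the wider lists of each kind, the right panel lists of other cell types and of low oxygen, on another scale. Mutant array 2 is lowest for all 4 cell cycle lists, and the S-phase and mitotic means coincide there at −0.33 and −0.34.

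Wider lists of the same processes lay on the same side. Of 48 other replication genes measured, 35 were lower and 0 called, with a median of −0.17. Groups did not overlap for 13, all lower, or 27.1%, against 9.18% of all genes. The smallest p values belonged to Clspn (claspin, a checkpoint mediator at the fork), Orc2 (of the origin recognition complex) and Gins3. Clspn read 9.52, 9.36 and 9.57 in wild type and 8.97, 8.65 and 8.42 in mutant cells, a difference of −0.80 (SE 0.17, 95% interval −1.19 to −0.42, limma adjusted p = 0.188). Orc2 stood at −0.78 and Gins3 at −0.60, both without overlap. In the other direction the polymerase delta genes Pold4, Pold2 and Pold1 stood at 0.55, 0.33 and 0.35, and none passed.

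Of 69 other mitotic genes 54 were lower and 0 called, with a median of −0.15; groups did not overlap for 8 lower genes, or 11.6%, which is close to the 9.18% of all genes, and for 1 higher gene (8.64% of all genes). The kinesin gene Kif15 stood at −0.48, Foxm1, the activator of G2 and mitosis genes, at −0.44 and the kinetochore gene Zw10 at −0.42. Pttg1 (securin), Cenpt and Zwilch were higher by 0.34, 0.24 and 0.19. Of 17 regulators of the E2F, pocket protein and MuvB families 12 were lower, with a median of −0.15. Rbl2, the pocket protein p130 that represses cell cycle genes in resting cells, read 5.63, 5.29 and 5.37 in wild type and 6.42, 6.11 and 6.05 in mutant cells. All mutant values were higher, and the difference of 0.76 (SE 0.16, 95% interval 0.40 to 1.13, limma adjusted p = 0.187) did not pass. The other pocket protein genes Rb1 and Rbl1 stood at 0.29 and 0.15. E2f2, Lin9 (of the MuvB core) and E2f8 stood at −0.42, −0.77 and −0.28.

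**Figure D4:**
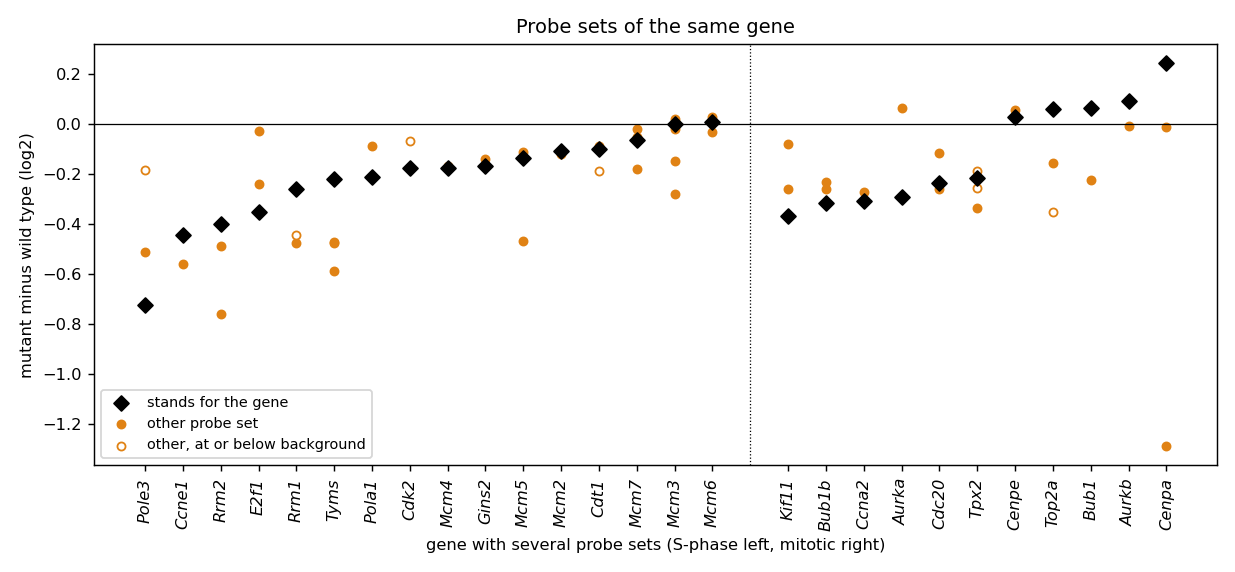
Difference of every probe set of the 27 genes with several, mutant minus wild type in log2 units; black diamonds stand for the gene, orange circles are its other probe sets, and open circles lie at or below background. Of the 83 probe sets of all 35 genes 73 lie below 0, the nucleotide supply genes are below 0 throughout, and Cenpa is split between 0.24 and −1.29.

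Probe sets left out of the gene values pointed the same way for most genes. Of 83 probe sets 73 were lower, or 88.0%, against 54.8% of all 34945 probe sets with a single gene, and 0 passed; 7 lay at or below background. Groups did not overlap for 19 lower probe sets, or 22.9%, against 9.04% overall. Of the 27 genes with several probe sets 19 had all of them lower, 7 were of mixed sign and Cenpe had none lower. For 10 of the 35 genes the chosen probe set is of a type (_s_at or _x_at) that can bind related transcripts; among these are Rrm2, Pole3 and Ccne1.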

How the data were processed

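Per the labels' protocols, total RNA was extracted with Trizol, amplified with the WT-Ovation Pico kit, biotin-labelled and hybridised to Affymetrix arrays. The deposited values are log2 signals, 1 per probe set and array; how the authors summarised and normalized them is not given in the sources used here. Sorted values nearly coincide between arrays, so a shift common to most genes could not be seen. Probe sets were named by GEO's platform annotation, with symbols updated from RefSeq (34741 of 34945 probe sets with a single gene matched). Background is the 95th percentile over 27 bacterial control probe sets, each averaged over arrays.

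Groups were compared over all 18193 genes with limma 3.58.1 in R 4.3.3, adjusted by Benjamini-Hochberg at 0.05. Group was the only term, the test was two-sided, and there were 4 residual and 3.45 prior degrees of freedom. Printed adjusted p values come from this fit, apart from those of a Cenpa probe set and of Pole3 under the alternatives. The Cenpa value comes from the same model fitted over all 34945 probe sets with a single gene. With 3 arrays a group, the smallest p an exact permutation test allows is 0.1, and none was run. Array number limits precision. The members and lists were chosen with earlier results of these data known, so their counts and medians are descriptions without a test. Values by array are given for genes whose groups do not overlap, the 4 of each class with the largest and the 2 with the smallest absolute difference; of wider lists, the 3 with the smallest p in each direction are named. Alternatives tried were quantile normalization, median centring, a filter on dim genes, other rules for the probe set (1 added after the data were seen), a trended robust prior, array weights, the replicate block, omission of single arrays and a stricter threshold of 0.01. Promoters are RefSeq's.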

Additional observations from a re-analysis of the deposited data

How the results depend on the processing

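In none of the 15 alternatives fitted was any of the 35 genes called; the lowest adjusted p was 0.097 (Pole3, without the dimmest 40% of genes), and that of Pole3 ran from 0.097 to 0.404. Of 524 gene values under the alternatives 494 kept their direction; 23 genes never changed sign and 12 did. The S-phase median kept within its replicate spread under every alternative (−0.25 to −0.16), and the mitotic median under all but 1, −0.042 without mutant replicate 2 (range on leaving out each array −0.25 to −0.042). Over all genes, 12 were called higher and 0 lower. The count of higher genes was 0 with the replicate block and at a threshold of 0.01, 1 with the most variable probe set and with the mean of probe sets, 5 without _s_at and _x_at probe sets (added after the data were seen), and 0 to 81 on leaving out each array; that of lower genes was 0 to 11 there, 11 without mutant replicate 1. The replicate block changed no other call; same-numbered arrays share only a number, with correlations of their deviations of 0.11, −0.075 and −0.016. The sign turned for the following genes. With quantile normalization: Mcm3 0.035. With median centring: Mcm6 −0.033, Cenpe −0.014. With array weights: Mcm3 0.044. Without _s_at and _x_at probe sets: Mcm6 −0.033. With the most variable probe set: Top2a −0.35, Bub1 −0.22, Cenpa −1.29. With the mean of probe sets: Top2a −0.15, Bub1 −0.079, Cenpa −0.35. Ranges on leaving out each array, for genes that turned, were −0.28 to 0.023 (Cdk2), −0.24 to 0.025 (Mcm2), −0.065 to 0.091 (Mcm3), −0.068 to 0.079 (Mcm6), −0.13 to 0.022 (Mcm7), −0.015 to 0.18 (Top2a), −0.19 to 0.062 (Ccnb2), −0.11 to 0.10 (Cdk1), −0.0099 to 0.21 (Aurkb), −0.032 to 0.13 (Bub1), −0.065 to 0.20 (Cenpe). Probe set choice turned Cenpa, Top2a, Bub1 and Mcm6, and of these only Cenpa turned under no other kind of alternative. Apart from probe set choice, the cause was not tested.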

Other observations

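Targets of p53, some of which halt the cycle after DNA damage, did not move one way. Of 10 such targets 6 were lower, with a median of −0.03 and 0 called. The CDK inhibitor gene Cdkn1a stood at −0.22, Ccng1 at 0.36 and Sesn2 at 0.51; these genes were picked out after their values were seen.

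S-phase genes with the E2F letters in their promoter window lay nearer to 0 than those without. This split was looked at after the values were known and was not tested. A gene without these exact letters can still hold an E2F site. The 8 with a match (Cdc6, Cdk2, Cdt1, Mcm3, Mcm5, Mcm6, Mcm7 and Pola1) had a median difference of −0.12, from −0.21 to 0.01. The 8 without (Ccne1, E2f1, Mcm2, Pcna, Pole3, Rrm1, Rrm2 and Tyms) had a median of −0.31, from −0.72 to −0.11. Of the first 8, 4 are MCM genes. The S-phase median was also nearer to 0 with CCAAT letters (−0.16 in 10 genes) than without (−0.29 in 6). The same held for CHR letters, −0.09 in 2 S-phase genes with and −0.22 in 14 without. Among mitotic genes the CHR split went the other way, −0.16 in 11 genes with and −0.12 in 2 without. None of these splits was tested. Within Rrm1, Rrm2 and Tyms the brightest probe set, which stood for the gene, gave the smallest difference.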
